A study of Mus musculus with 6 samples.

Results

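The nuclear genes that encode the subunits of the oxidative phosphorylation machinery were examined in primary mouse astrocytes given TNF, an inflammatory cytokine. They were taken by symbol: Ndufa, Ndufb, Ndufc, Ndufs or Ndufv followed by a digit, Sdha to Sdhd, symbols that start with Uqcr, Cyc1, the Cox4 to Cox8 families, symbols that start with Atp5, and Cycs. This gave 83 genes of the 19926 tested. By symbol, 35 were counted in complex I, 4 in complex II and 9 in complex III. Another 17 were counted in complex IV and 17 in ATP synthase, with cytochrome c (Cycs) as the last. Genes that fit the same symbols but have no probe set of their own, Cox7c and Ndufb4 among them, were not analysed here. RNA came from astrocyte cultures of C57BL/6J mice, either control or given 50 ng/mL TNF, both collected at 24 h, with 3 arrays in each group, numbered as replicates 1 to 3. Each sample was hybridised to a 1-colour Affymetrix Mouse Gene 1.0 ST array, and the values are log2 signals. No mutation, transgene or sort is named for either group, and whether the replicates came from different cultures or litters is not given in the sources used here, so the p-values reflect only how far these arrays differ, and that spread may be technical.

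Oxidative phosphorylation takes place in the inner mitochondrial membrane. Complex I (NADH dehydrogenase) and complex II (succinate dehydrogenase) pass electrons to ubiquinone, complex III passes them on to cytochrome c, and complex IV (cytochrome c oxidase) passes them to oxygen. Complexes I, III and IV pump protons as they do so, and ATP synthase uses the proton gradient to make ATP. Most subunits are nuclear genes, and a small set is encoded in mitochondrial DNA. Astrocytes hold a full respiratory chain although they are known for a high rate of glycolysis.

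Several nuclear factors are known to bind near the start of respiratory genes, among them NRF1, the Ets family member GABP and YY1. RefSeq promoter windows (GRCm38.p6, 250 bases before to 50 after a transcription start) were matched by symbol for 67 of the 83 genes, and 16 had none. The windows below belong to genes to which the results return, and are written 5′ to 3′ on the strand of the gene, with matches to the patterns searched in capitals. They lie at chr2:90904672-90904971 on the minus strand (Ndufs3), chr6:50566520-50566819 on the minus strand (Cycs), chr4:140961021-140961320 on the plus strand (Sdhb), chr16:91931581-91931880 on the minus strand (Atp5o) and chr7:30183921-30184220 on the plus strand (Cox7a1).
Ndufs3: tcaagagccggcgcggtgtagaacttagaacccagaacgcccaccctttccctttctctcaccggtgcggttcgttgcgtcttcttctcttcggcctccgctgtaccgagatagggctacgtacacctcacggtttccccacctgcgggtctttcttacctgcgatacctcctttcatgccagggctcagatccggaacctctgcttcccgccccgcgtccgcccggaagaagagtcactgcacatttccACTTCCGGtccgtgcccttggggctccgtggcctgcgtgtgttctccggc
Cycs: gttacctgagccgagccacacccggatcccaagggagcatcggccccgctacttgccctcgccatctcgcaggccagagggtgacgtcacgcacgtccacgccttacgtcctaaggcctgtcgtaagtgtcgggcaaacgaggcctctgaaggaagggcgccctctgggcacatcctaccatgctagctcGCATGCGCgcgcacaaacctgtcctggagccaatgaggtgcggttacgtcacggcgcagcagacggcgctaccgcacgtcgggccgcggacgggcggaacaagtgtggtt
Sdhb: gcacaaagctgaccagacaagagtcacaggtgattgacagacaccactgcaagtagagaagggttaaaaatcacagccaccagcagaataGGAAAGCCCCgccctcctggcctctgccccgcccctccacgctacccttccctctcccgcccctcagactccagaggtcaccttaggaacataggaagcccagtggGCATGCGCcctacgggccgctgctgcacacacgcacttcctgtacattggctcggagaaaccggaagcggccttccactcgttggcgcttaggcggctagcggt
Atp5o: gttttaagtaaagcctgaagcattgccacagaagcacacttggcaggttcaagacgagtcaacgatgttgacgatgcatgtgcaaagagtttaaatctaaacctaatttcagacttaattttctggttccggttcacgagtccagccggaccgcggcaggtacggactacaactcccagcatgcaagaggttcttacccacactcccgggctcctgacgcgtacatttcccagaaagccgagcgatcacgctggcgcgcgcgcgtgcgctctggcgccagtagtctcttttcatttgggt
Cox7a1: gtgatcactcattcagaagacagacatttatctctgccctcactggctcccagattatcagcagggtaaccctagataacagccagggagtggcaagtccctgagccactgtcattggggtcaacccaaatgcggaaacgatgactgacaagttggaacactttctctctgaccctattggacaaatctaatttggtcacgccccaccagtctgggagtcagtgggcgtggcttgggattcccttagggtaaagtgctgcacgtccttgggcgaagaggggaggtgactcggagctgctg

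The capitals mark an Ets match at the start site in Ndufs3, an NRF1 match that begins 60 bases before the start in Cycs, and an NRF1 match 54 bases before the start in Sdhb, whose first run of capitals, 160 bases before the start, is a match to the NF-kB consensus. The windows of Atp5o and Cox7a1 held none of the 4 patterns, which says only that these letters are not in these windows. On either strand, the NRF1 pattern GCGCATGC was found in 11 of the 72 windows of the 67 genes (15.3%), against 2.71% of all 32851 windows. The YY1 pattern AAGATGGC was found in 10 windows (13.9% against 2.75%). The Ets pattern CCGGAAGT was found in 5 (6.94% against 3.89%). At least 1 of these 3 patterns was present in 25 windows (34.7%), against 8.83% of all windows. The NF-kB consensus, the site of the factor that TNF signalling is best known to activate, was found in 7 windows of 6 genes (9.72% against 5.8%). Only the windows of Uqcr11 and Sdhb held matches of more than 1 pattern, and these did not overlap. A match is a description of sequence, and no binding was measured.

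None of the 83 genes passed the test between TNF and control arrays, in either direction. Of all genes tested, 7.20% passed (771 higher and 663 lower with TNF; limma, two-sided, p under 0.05 after Benjamini-Hochberg adjustment across the 19926 genes). Since 77 of the 83 lie at or above the median signal of all genes, the same fit was made on those brighter genes alone. There 17.3% of 9963 genes passed, and still 0 of the 77. At an unadjusted p under 0.05, 1 of the 83 genes passed (Ndufs3, 1.20%), against 18.9% of all genes.

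The differences were also small. They ran from -0.31 (Cox7a1) to 0.30 (Ndufs3) on the log2 scale, TNF minus control, with a median of -0.033 against -0.0033 over all genes. Positive differences were seen in 30 genes and negative ones in 53, against 9834 positive and 10092 negative over all genes. None of the 83 differed by more than 1.5-fold, a size that 8.85% of all genes exceeded. The middle 50% of the 83 lay between -0.11 and 0.04, against -0.14 and 0.12 over all genes, and the median SE was 0.13 against 0.14. In bulk RNA, fewer cells of a type and less RNA per cell cannot be told apart.

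**Figure D1:**
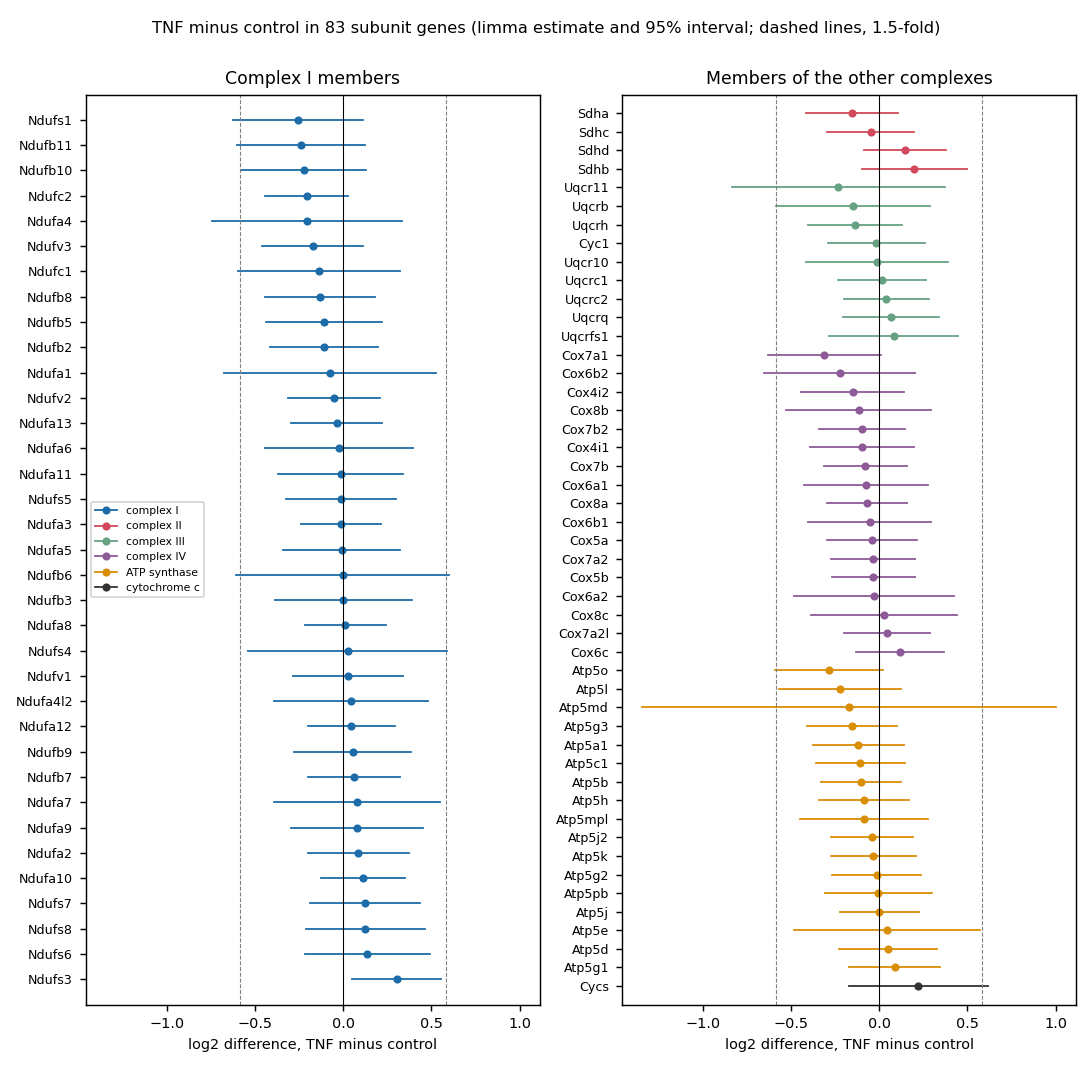
Log2 difference, TNF minus control, of each of the 83 subunit genes (points, limma estimate from 3 arrays a group) with its 95% interval (bars), coloured by complex; dashed lines mark 1.5-fold. All estimates lie between -0.31 and 0.30, and 14 intervals reach past a dashed line, the widest being that of Atp5md.

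A test that is not passed does not show that a gene is unchanged, so the 95% interval of each difference was read against a change of 1.5-fold either way. The interval lay within that range for 69 of the 83 genes (83.1%), against 66.8% of all genes. With the replicate number as a block, a fit that takes out what the control and TNF arrays of one number share, it did so for all 83, against 82.2% of all genes. The 14 outside it in the unblocked fit were Ndufs1, Ndufb11, Ndufa4, Ndufc1, Ndufa1, Ndufb6, Ndufs4, Uqcr11, Uqcrb, Cox7a1, Cox6b2, Atp5o, Atp5md and Cycs. For these the data allow a change above 1.5-fold in at least one direction. The interval of Atp5md, a small membrane subunit of ATP synthase named here for its width, ran from -1.34 to 1.00. Its signal was 12.38, 12.33 and 11.09 on control replicates 1 to 3 and 12.31, 12.30 and 10.68 on TNF replicates 1 to 3, so that the low values were those of replicate 3 in both groups.

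**Figure D2:**
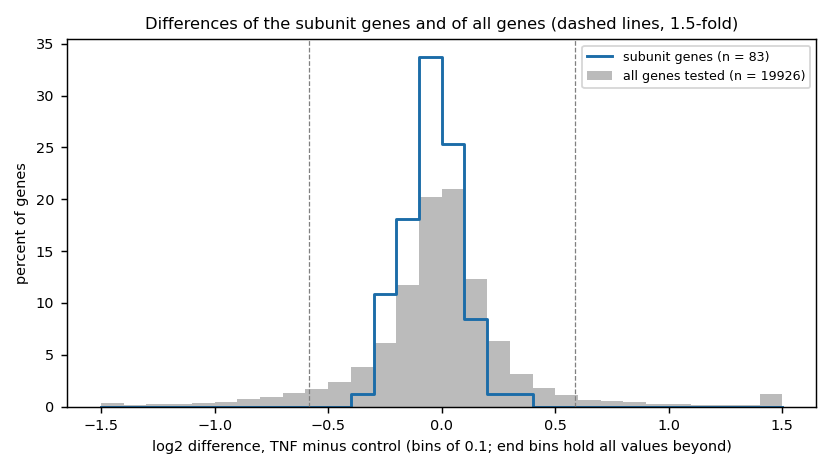
Share of genes (vertical axis, percent) by log2 difference, TNF minus control (horizontal axis, bins of 0.1), for the 83 subunit genes (line) and all 19926 genes (grey); dashed lines mark 1.5-fold. The subunit genes stay between -0.31 and 0.30, while 8.85% of all genes lie beyond 1.5-fold.

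The block changed a few calls. With it, 3 of the 83 genes passed (3.61%), Ndufs3 upward and Cox7a1 and Atp5o downward, against 21.5% of all genes. Their blocked adjusted p-values (limma, Benjamini-Hochberg) were 0.0384, 0.0295 and 0.0371. These genes take different roles, in the core of complex I, in complex IV and in the stalk of ATP synthase. Counts that rest on the arrays themselves were mixed. The TNF and control arrays did not overlap in 2 genes with TNF higher (Ndufs3 and Sdhd) and 6 with TNF lower (Ndufc2, Cox7b2, Cox7b, Cox8a, Atp5g3 and Atp5b), together 9.64% against 24.0% of all genes. The difference had the same sign in 3 of 3 pairs of replicate number for 17 genes upward and 30 downward. That is 56.6% against 52.6% of all genes, so this share was not lower than in all genes.

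Complex I, the entry point for electrons from NADH, was evenly divided, with 16 positive and 19 negative differences and a median of -0.0086. The sign of that median depended on single arrays: it was -0.10 without control replicate 3 and 0.063 without TNF replicate 3. Its core subunits, the ones conserved from bacteria, among which are the carriers of the flavin and the iron-sulphur clusters, were measured as Ndufs1, Ndufs3, Ndufs7, Ndufs8, Ndufv1 and Ndufv2. Their median difference was 0.077, against -0.0096 for the other 29 genes counted in complex I, and 4 of the 6 were positive. No test was made of the difference between these groups.

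Ndufs3, a core subunit of the arm that projects into the matrix, had a signal of 11.14, 11.07 and 10.99 on control replicates 1 to 3 and 11.34, 11.48 and 11.29 on TNF replicates 1 to 3. The TNF arrays were all above the control arrays, and each pair went the same way. The means were 11.07 ± 0.08 and 11.37 ± 0.10 (SD, n = 3), a difference of 0.30 ± 0.11 (SE) or 1.23-fold, with a 95% interval of 0.05 to 0.56 and a limma adjusted p of 0.174 (Benjamini-Hochberg; 0.0384 with the block).

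Ndufs1, the largest core subunit and a carrier of iron-sulphur clusters, lay at the other end of complex I. It gave 9.38, 9.63 and 9.22 on the control arrays and 9.31, 9.26 and 8.90 on the TNF arrays, a difference of -0.26 ± 0.16 (limma adjusted p 0.493, Benjamini-Hochberg). The groups overlapped, although TNF was lower in 3 of 3 pairs.

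Ndufc2, an accessory subunit of the membrane arm, read 13.11, 12.99 and 13.02 on the control arrays and 12.88, 12.84 and 12.77 on the TNF arrays. Here the groups did not overlap, with a difference of -0.21 ± 0.10 (limma adjusted p 0.351, Benjamini-Hochberg).

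Ndufa4 carries a complex I name and was counted there by symbol, although its protein is now placed in complex IV. Control arrays gave 10.44, 10.40 and 9.82 and TNF arrays 10.26, 10.20 and 9.59, and the difference of -0.20 ± 0.23 was smaller than the drop from replicates 1 and 2 to replicate 3 within each group. Ndufa4l2, its paralog known for induction by hypoxia, was likewise counted in complex I by symbol only. This paralog read 6.25, 6.20 and 6.53 in control and 6.26, 6.09 and 6.75 with TNF. Its values overlapped, and they lay below the median signal of all genes.

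Complex II is the enzyme that the respiratory chain shares with the tricarboxylic acid cycle. Its 4 genes split evenly, with a median of 0.048. Sdhb, the iron-sulphur subunit whose promoter window is shown above, read 10.45, 10.30 and 10.06 in control and 10.52, 10.46 and 10.42 with TNF. The difference was 0.20 ± 0.13 (limma adjusted p 0.517, Benjamini-Hochberg), and the control value of replicate 3 was the low one.

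Sdhd, a membrane anchor, read 10.08, 10.10 and 10.02 in control and 10.28, 10.20 and 10.16 with TNF, without overlap, a difference of 0.15 ± 0.10. The flavoprotein subunit Sdha gave 11.76, 11.50 and 11.70 in control and 11.53, 11.45 and 11.52 with TNF, a difference of -0.15 ± 0.11. The other anchor, Sdhc, gave 11.37, 11.31 and 11.32 and then 11.41, 11.22 and 11.23, a difference of -0.05 ± 0.11. Thus the iron-sulphur subunit and one anchor had positive differences and the flavoprotein and the other anchor negative ones, none past the test.

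Complex III, the cytochrome bc1 complex, had 4 positive and 5 negative differences and a median of -0.014, which was -0.070 without control replicate 3 and 0.043 without control replicate 1. Uqcr11, a small subunit, had the most negative one: 10.52, 10.63 and 9.78 in control and 10.21, 10.36 and 9.68 with TNF, -0.23 ± 0.26. Both arrays of replicate 3 were again the lowest. Uqcrb, which lies near the ubiquinone site, read 12.01, 11.69 and 11.52 in control and 11.84, 11.66 and 11.26 with TNF, -0.15 ± 0.19.

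Uqcrh, the hinge protein between the complex and cytochrome c, read 11.69, 11.52 and 11.47 in control and 11.53, 11.38 and 11.36 with TNF, -0.14 ± 0.11. Cyc1, cytochrome c1, was close to 0. It read 11.01, 10.94 and 10.86 in control and 11.01, 11.01 and 10.74 with TNF, -0.02 ± 0.12. Uqcrfs1, the Rieske iron-sulphur protein, had the most positive difference of the complex, 0.08 ± 0.16, from 8.87, 8.93 and 8.45 to 8.78, 9.00 and 8.71. All of these groups overlapped.

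Cycs encodes cytochrome c, the soluble carrier between complexes III and IV, which is also known for its release in apoptosis. Its signal was 11.46, 11.91 and 11.42 on the control arrays and 11.78, 12.03 and 11.64 on the TNF arrays. TNF was higher in 3 of 3 pairs, yet replicate 2 was the highest in both groups and the groups overlapped. The difference was 0.22 ± 0.17 with a 95% interval of -0.17 to 0.62 (limma adjusted p 0.626, Benjamini-Hochberg; 0.103 with the block). Among the genes with several probe sets it alone had differences of both signs, from -0.09 to 0.22, and processed copies in the genome, known for this gene as for many other respiratory genes, make its signal less certain.

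**Figure D3:**
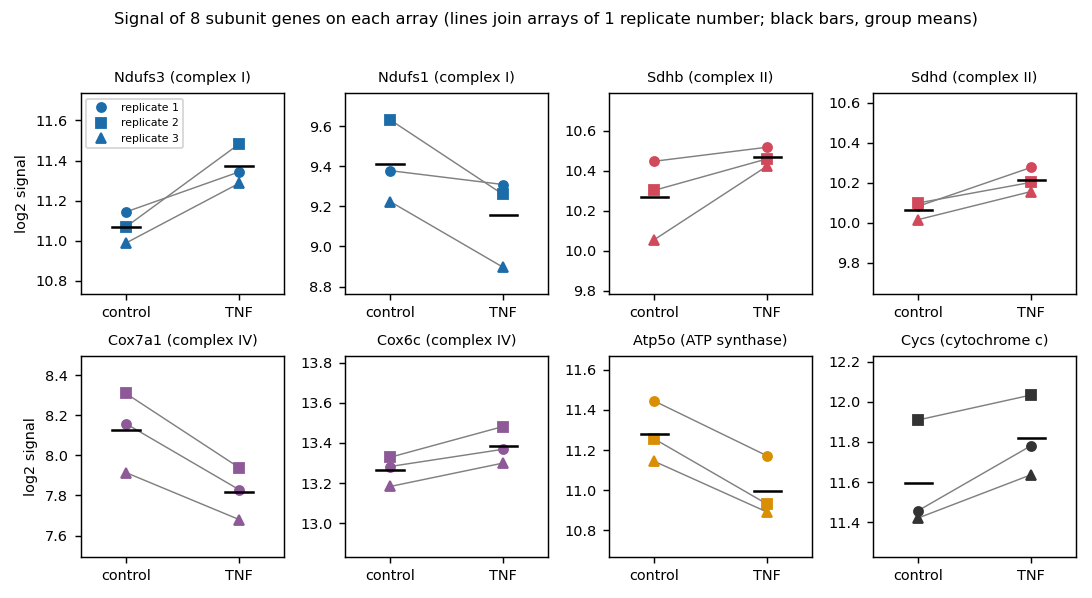
Log2 signal (vertical axes, each with its own range) on control and TNF arrays for 8 subunit genes; each marker is 1 array, lines join arrays of the same replicate number and black bars are group means. Ndufs3 and Sdhd show no overlap between the groups, while in the other 6 genes some TNF values lie within the range of the control values.

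Complex IV had mostly negative differences, 14 of 17 with 3 positive, and a median of -0.070, none past the unblocked test. The median within each pair of replicate number was -0.11, -0.068 and -0.028, against -0.044, -0.0061 and 0.042 over all genes. The complex includes subunits with tissue or condition specific isoforms, which make it possible to set paralogs beside each other by their differences, though not by their levels, since each probe set has its own sensitivity.

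Cox7a1, the isoform of heart and skeletal muscle, had the most negative difference of all 83 genes. Its signal was 8.16, 8.31 and 7.91 in control and 7.83, 7.94 and 7.68 with TNF. The means were 8.13 ± 0.20 and 7.82 ± 0.13 (SD, n = 3), a difference of -0.31 ± 0.14 or 1.24-fold lower, with a 95% interval of -0.63 to 0.01 and a limma adjusted p of 0.281 (Benjamini-Hochberg; 0.0295 with the block). The highest TNF array lay just above the lowest control array, and TNF was lower in each pair.

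Its widely expressed counterpart Cox7a2 read 10.39, 10.53 and 10.46 in control and 10.43, 10.37 and 10.48 with TNF, -0.04 ± 0.10. The related gene Cox7a2l read 8.50, 8.41 and 8.58 in control and 8.60, 8.51 and 8.50 with TNF, 0.04 ± 0.10. In both genes the groups overlapped. The difference between paralogs was not tested.

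Cox4i1, the common form of the subunit that sets the ATP sensitivity of the enzyme, read 10.75, 10.58 and 10.41 in control and 10.58, 10.50 and 10.36 with TNF, -0.10 ± 0.13. Its hypoxia-responsive paralog Cox4i2 read 7.41, 7.54 and 7.74 and then 7.30, 7.45 and 7.49, -0.15 ± 0.13. The members of the pair had differences of like size.

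Cox6b1 and the testis isoform Cox6b2 line the side where cytochrome c docks. Cox6b1 read 12.02, 12.01 and 11.61 in control and 11.89, 11.93 and 11.64 with TNF, -0.05 ± 0.15. Cox6b2 read 10.01, 10.11 and 10.59 in control and 9.79, 10.04 and 10.21 with TNF, -0.22 ± 0.18. In Cox6b1 replicate 3 was low in both groups, and in Cox6b2 it was high in both.

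Cox6a1 gave 11.03, 10.92 and 10.72 in control and 10.98, 10.91 and 10.55 with TNF, and its muscle form Cox6a2 gave 7.66, 7.73 and 7.92 and then 7.60, 7.44 and 8.18; the differences were -0.07 ± 0.15 and -0.03 ± 0.20. Cox5a and Cox5b, which have no isoforms, varied little, with Cox5a from 10.29 to 10.51 in control and 10.29 to 10.43 with TNF and Cox5b from 11.99 to 12.10 and 11.97 to 12.06. Their differences were -0.04 ± 0.11 and -0.03 ± 0.10. None of these pairs differed between groups beyond the spread of its arrays.

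Cox7b read 12.76, 12.64 and 12.63 in control and 12.62, 12.63 and 12.55 with TNF, -0.08 ± 0.10, just without overlap. Cox8a, the common form of the smallest subunit, read 12.44, 12.41 and 12.43 in control and 12.31, 12.36 and 12.41 with TNF, -0.07 ± 0.10. Its muscle form Cox8b (5.98 to 6.58 over all arrays) and its testis form Cox8c (6.75 to 7.31), like Cox7b2 (4.31 to 4.55), were below the median signal of all genes. Low values may lie near background, and no detection calls were used.

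Cox6c, a subunit with a single form in mouse, had the most positive difference of complex IV, 0.12 ± 0.11, from 13.28, 13.33 and 13.18 to 13.37, 13.48 and 13.30. Over the 8 isoforms of restricted expression (Cox4i2, Cox6a2, Cox6b2, Cox7a1, Cox7b2, Cox8b, Cox8c and Ndufa4l2) the median was -0.11, with 6 negative, and over the other 10 subunits of complex IV, Cox7a2l included, it was -0.048, with 8 negative. Of the isoforms, Cox4i2, Cox7b2, Cox8b, Cox8c and Ndufa4l2 lay below the median signal of all genes, where values may lie near background. Without genes below that signal, the median of complex IV was -0.054.

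ATP synthase likewise had 13 negative and 4 positive differences and a median of -0.085. The medians within pairs were -0.058, -0.028 and -0.086, against the same -0.044, -0.0061 and 0.042 over all genes. With 1 array left out the median stayed negative but moved to -0.013 without TNF replicate 3, to -0.018 without control replicate 1 and to -0.12 without TNF replicate 1. Atp5o, the subunit of the peripheral stalk that confers oligomycin sensitivity, had the most negative one. Its signal was 11.44, 11.26 and 11.14 in control and 11.17, 10.93 and 10.89 with TNF, so that the groups overlapped in 1 TNF array. The means were 11.28 ± 0.15 and 11.00 ± 0.15 (SD, n = 3), a difference of -0.28 ± 0.13 or 1.22-fold lower, with a 95% interval of -0.59 to 0.02 and a limma adjusted p of 0.305 (Benjamini-Hochberg; 0.0371 with the block).

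Atp5l, subunit g of the membrane sector, read 9.87, 9.71 and 9.47 in control and 9.60, 9.55 and 9.25 with TNF, -0.22 ± 0.15 (limma adjusted p 0.548, Benjamini-Hochberg). The catalytic head subunits Atp5a1 and Atp5b, named here beside it for their role, had differences of -0.12 ± 0.11 and -0.10 ± 0.10. Atp5b read 13.00, 13.06 and 13.04 in control and 12.96, 12.88 and 12.95 with TNF, without overlap.

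The rotor ring subunit c is made from 3 genes with the same mature protein. Atp5g1 read 12.53, 12.51 and 12.31 in control and 12.56, 12.60 and 12.46 with TNF, 0.09 ± 0.11, the most positive difference of ATP synthase. Atp5g2 read 12.68, 12.48 and 12.58 and then 12.64, 12.50 and 12.56, -0.01 ± 0.11. Atp5g3 read 11.70, 11.59 and 11.45 and then 11.45, 11.43 and 11.40, -0.15 ± 0.11, with the highest TNF array at the level of the lowest control array to 2 decimals. Of these 3 genes, 1 thus had a positive difference and 2 a negative one, none past the test.

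The arrays of replicate 3 stood apart for these genes in both groups. For 40 of the 83 genes (48.2%) both replicate 3 arrays were below the other 4, against 12.8% of all genes, and for 5 (6.02%; Ndufa4l2, Cox6b2, Cox8b, Cox6a2 and Cox8c) both were above, against 23.9%. Signal level moves with this. Among genes at or above the median signal the shares below were 40 of 77 (51.9%) and 19.4%, and among genes below the median the shares above were 3 of 6 and 43.2%. Both replicate 3 arrays were below the other 4 for 24 of 35 genes in complex I, 5 of 9 in complex III, 7 of 17 in ATP synthase, 4 of 17 in complex IV and 0 of 4 in complex II. Expressed about each gene's own mean, the median of the 83 was 0.10, 0.019 and -0.080 on control replicates 1 to 3 and 0.059, 0.0039 and -0.096 on TNF replicates 1 to 3. The gap between replicates was therefore wider than that between treatments. Markers of other cell types were mixed. Both arrays of replicate 3 were above the other 4 for 8 of 10 microglial and 4 of 5 endothelial markers. The share was 23.9% of all genes and 43.2% of those below the median signal. The other lists gave 4 of 8 oligodendrocyte, 3 of 7 fibroblast and mural, 1 of 7 neuron and 1 of 5 ependymal markers. Some of these lists also hold genes above that median, so neither share matches them in signal. The mean log2 signal of the microglial list was 7.67 and 7.79 on the replicate 3 arrays against 6.56 to 7.45 on the others. The part of these cell types in the result was not tested. With both arrays of replicate 3 left out, 0 of the 83 genes passed and the median difference was -0.042.

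**Figure D4:**
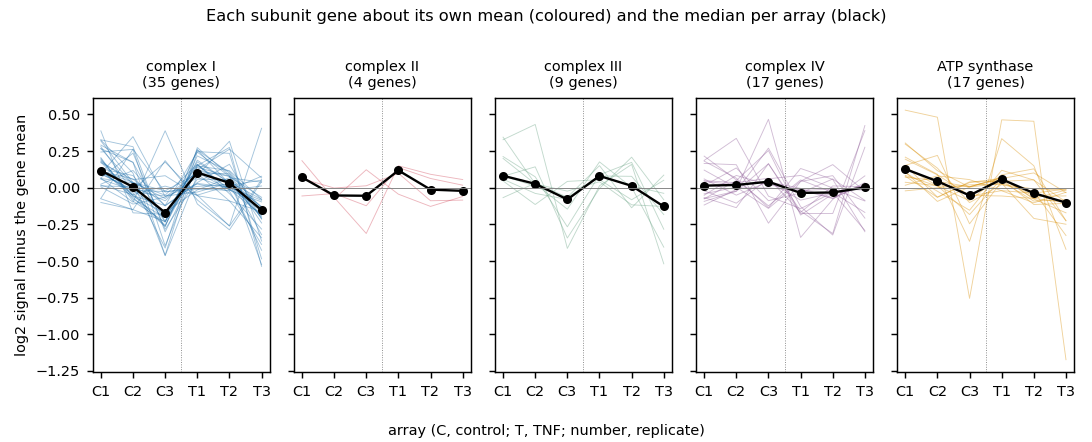
Log2 signal of each subunit gene minus its mean over the 6 arrays (thin lines) and the median per array (black), by complex, for control (C) and TNF (T) replicates 1 to 3. In complex I the median drops at replicate 3 in both groups, to -0.17 and -0.15, and in complex IV it stays between -0.035 and 0.041.

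Genes around the respiratory chain were read from lists of the same pathway. Assembly factors build the complexes without staying in them. The list of 46 also holds Ndufab1 (0.07 ± 0.16), a complex I subunit that the digit rule left out of the 83. Of the 46 listed genes 42 were measured, 1 rose and 0 fell in the unblocked test, against the 7.20% of all genes given above. This was Cox18, an insertase for a mitochondrially encoded subunit of complex IV. Its signal was 10.69, 10.77 and 10.33 in control and 11.28, 11.64 and 11.38 with TNF, a difference of 0.83 ± 0.16 or 1.78-fold (limma adjusted p 0.0191, Benjamini-Hochberg). The median over the 42 was 0.12, with 32 positive, where that of the 83 subunits was -0.033. With the block 7 of the 42 rose and 1 fell, against 21.5% of all genes, among them Sco1 (0.54 ± 0.15), a copper chaperone of complex IV, and Foxred1 (0.56 ± 0.16), an assembly factor of complex I.

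Only 2 of the 13 mitochondrially encoded subunits had a probe set of their own, and neither passed: COX2 differed by -0.08 ± 0.10 and ND3 by -0.19 ± 0.15. All 12 listed regulators of mitochondrial biogenesis were measured, with 0 called and a median of 0.044. Ppargc1a, the coactivator PGC-1alpha, read 9.98, 10.24 and 9.98 in control and 9.61, 9.58 and 9.05 with TNF, without overlap. Its difference was -0.65 ± 0.17 (limma adjusted p 0.0690, Benjamini-Hochberg; 0.00652 with the block). The related coactivator gene Pprc1 had a difference of 0.39 ± 0.12 (limma adjusted p 0.123, Benjamini-Hochberg; 0.0137 with the block). The subunit genes with an NRF1 match in their window had a median difference of -0.014 (11 genes) and those without one -0.038 (56 genes). For the Ets pattern the order was the opposite, -0.086 with a match (5 genes) and -0.028 without (62 genes). With and without a YY1 match the medians were -0.0022 (10 genes) and -0.036 (57 genes), and for the NF-kB consensus -0.019 (6 genes) and -0.034 (61 genes).

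Of 18 listed genes of the tricarboxylic acid cycle and pyruvate dehydrogenase 17 were measured, 0 passed, and 16 of the differences were negative, with a median of -0.14. With the block 1 of the 17 rose and 5 fell, against the same 21.5% of all genes, among them Fh1, fumarate hydratase (-0.41 ± 0.11), and Pdha1, the catalytic subunit of pyruvate dehydrogenase (-0.33 ± 0.13). Fh1 read 10.41, 10.39 and 10.25 in control and 10.06, 9.88 and 9.86 with TNF, without overlap (limma adjusted p 0.0730, Benjamini-Hochberg). Of 19 listed carriers, pores, import and uncoupling genes 18 were measured, again with 0 called, a median of 0.021, and 2 of the 18 up and 5 down with the block, where 21.5% of all genes passed. Vdac1, the main pore of the outer membrane, differed by -0.38 ± 0.11 and Timm23, the import channel of the inner membrane, by 0.34 ± 0.10, each without overlap between the groups.

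**Figure D5:**
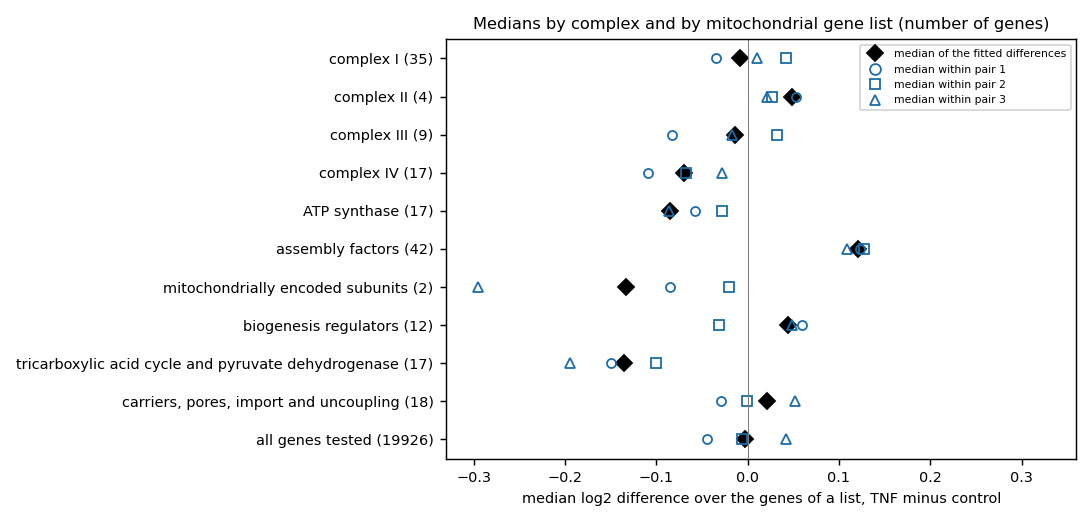
Median log2 difference, TNF minus control, over the genes of each complex and of each related list (number of genes in brackets), from the fit (diamonds) and within each pair of replicate number (open markers). Complex IV and ATP synthase lie below 0 in all 3 pairs, assembly factors lie above 0.1 and the tricarboxylic acid cycle list at or below -0.10 in all 3 pairs; no test was made of the difference between lists.

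Markers of the culture were read in the same fit. Gfap, an intermediate filament used as an astrocyte marker, had a signal of 11.55 to 12.40 on the control arrays, whose medians over all probe sets were 7.15 to 7.16. Some markers of other lists were bright there too, with control means of 13.37 (Acta2), 12.09 (Stmn2), 11.29 (Olig1) and 10.84 (Map2). The astrocyte marker S100b had a control mean of 6.59. As whole lists, the other cell types had mean control signals from 6.33 (endothelial) to 8.53 (ependymal). Of 12 astrocyte markers 5 fell with TNF (Aldoc, Glul, Gja1, Fgfr3 and Atp1b2) and 0 rose, against 7.20% of all genes, with a median difference of -0.64 and a mean log2 signal of 11.06 to 11.32 in control and 10.57 to 10.79 with TNF. With the block 8 of the 12 fell and 2 rose, Aqp4 and Slc1a2, against 21.5% of all genes. Microglial markers gave 0 of 10 past the test without the block and 2 higher with it, Itgam and Cd68. In each of 4 other lists 1 gene fell: Olig1 of 8 oligodendrocyte and precursor markers, Map2 of 7 neuron markers, Kdr of 5 endothelial markers and Acta2 of 7 fibroblast and mural markers. Of 5 ependymal markers 1 rose, Rarres2. The block added lower calls for Syn1 and Stmn2 of the neuron list, Pdgfrb of the fibroblast and mural list and Dynlrb2 of the ependymal list. The medians over the 83 subunit genes and over each complex lay between -0.085 and 0.048 in the same comparison.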

How the data were processed

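Expression was measured on 6 arrays, 3 control and 3 TNF. The authors deposited log2 values, for which the submitters' processing notes name RMA (background correction, quantile normalization between arrays, probe summary) and limma, without versions; the log base was read from the values. RMA draws in large folds, and the number of arrays limits the precision.

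Of 35544 probe sets, 21777 have exactly 1 symbol in the platform annotation; the one of highest mean was kept for each of 19926 genes. The 83 subunit symbols all matched RefSeq (GRCm38.p6) by Entrez number. limma 3.58.1 in R 4.3.3 (lmFit, eBayes) tested TNF minus control, two-sided, over all genes, calling p under 0.05 after Benjamini-Hochberg adjustment, 4 residual and 3.70 prior degrees of freedom; scripts were tested on simulated data. Counts, promoter searches and plots used matplotlib 3.10.9, numpy 2.4.6 and pandas 2.3.3 under Python 3.11.15.

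The labels number replicates alike in both groups. Deviations from the group means of same-numbered arrays correlated at 0.55, 0.65 and 0.75. On the strength of these values, same-numbered arrays were taken as pairs in the pair counts and in an alternative fit. That fit with a block, which leaves 2 residual degrees of freedom, stands beside the results whose calls it changes. The main fit does not use the pairs. SEs printed with single differences come from it, as do tests and intervals where no block is named.

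Members, lists and alternatives were chosen with earlier results of these data known, and reading intervals against 1.5-fold, the counts over replicate 3 and the promoter patterns were added after the values were seen. Named with array values were, per complex, the 3 genes of smallest p, the extremes, all Sdh genes, Cyc1, Cycs and paralog pairs; from other lists, genes past the test or else the 2 of smallest p. Other genes were named after their values were seen. The alternatives were other scalings, variance models, array weights, probe sets, a filter on dim genes, wider membership, a stricter threshold, blocks and left-out arrays.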

Additional observations from a re-analysis of the deposited data

How the results depend on the processing

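Across 16 fits without a block (other scalings, variance models, weights, probe sets, a filter on dim genes and left-out arrays) 0 subunit genes passed the limma test, as in the reported fit; the filter on dim genes left 77 of the 83 in the fit, the others all 83. With the replicate block 1 gene was called higher and 2 lower, and with the replicate number as a random block (consensus correlation 0.65) likewise 1 and 2; the paired fits leave the estimates as they are and narrow their errors, with a median SE of 0.079 for these genes. The block changed no other call among the 83. The median difference of complex IV was -0.070 and ran from -0.0912 (both arrays of replicate 3 left out) to -0.0405 (both arrays of replicate 1 left out), below 0 in each of these fits. With arrays left out the median ran from -0.12 (without TNF replicate 1) to -0.013 (without TNF replicate 3) in ATP synthase, from -0.10 to 0.063 in complex I, from 0.0011 to 0.077 in complex II and from -0.070 to 0.043 in complex III. Leaving arrays out moved the median over all 83 genes between -0.0823 and 0.00638, the positive value without TNF replicate 3. The number of genes whose interval lay within 1.5-fold was 48 to 80 with arrays left out, lowest without both arrays of replicate 2. Of 37 named genes, 13 changed sign under a setting, without passing the threshold; the largest reported size among these was 0.20. Depth does not apply to arrays; 6 of the 83 genes lie below the median signal, where values may lie near background.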
